A study of Mus musculus with 24 samples.

Results

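The Bmp and Tgf-beta pathway genes described here are a fixed list of 42 genes. They were chosen by name, as ligands, receptors, secreted antagonists, matrix and processing proteins, Smads and transcriptional targets, out of 22282 genes measured in 24 RNA-sequencing libraries of mouse endothelial and amniotic cells. All 42 were found, and all 42 were among the 14964 genes kept for testing, whose FPKM averaged 1 or more over the 24 libraries. The list holds 7 ligands, 10 receptors, 7 antagonists, 5 proteases and matrix proteins, 6 signalling Smads, 2 inhibitory Smads and 5 targets.

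The ligands of this family are secreted dimers that bring type I and type II receptor kinases together at the cell surface. The type I receptor then phosphorylates receptor Smads, Smad1, Smad5 and Smad9 on the Bmp side and Smad2 and Smad3 on the Tgf-beta and activin side, which enter the nucleus with Smad4. Endothelial cells (ECs) are known for a branch of their own, in which Bmp9 and Bmp10 of the blood bind the type I receptor Acvrl1 (also called Alk1) with the co-receptor endoglin (Eng) and the type II receptor Bmpr2. Inherited loss of Eng or Acvrl1 causes hereditary haemorrhagic telangiectasia, a disease of vessel malformations. The Id genes and the inhibitory Smads are direct targets of Bmp signalling.

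The 8 groups had 3 libraries each and came from the C57BL/6J background. MACs are amniotic cells of embryos at E11.5-E13.5, grown as a mixed culture that was not sorted. RACVECs are MACs that received lentiviruses for the Ets factors Etv2, Erg and Fli1 and were kept for 28 days in EC medium. Akt-MACs and Akt-RACVECs also carried a constitutively active, myristoylated Akt, and Sox17-RACVECs were RACVECs given a Sox17 virus and selected with puromycin. Akt-LECs and Akt-liver ECs were adult lung and liver ECs isolated on anti-CD31 beads, cultured with the same Akt and sorted again for VEcad and CD31. LSECs were liver ECs sorted straight from mice after labelled antibody to VEcad and isolectin had been injected, without culture and without a virus. The EC medium of converting cells and of the cultured ECs held SB431542, an inhibitor of the Tgf-beta type I receptor kinases, whereas MACs were grown in an amniotic cell medium before conversion. The medium in which the sequenced MACs and Akt-MACs were kept is not given in the sources used here. Where it lacked the inhibitor, inhibitor and Ets factors cannot be told apart by these groups, and neither can culture and the Akt virus in the liver ECs. A MAC replicate was an independent isolate of embryos of both sexes. The sequenced samples are spoken of as individual isolates in the paper, which does not say whether those of the adult ECs came from separate mice. The p-values of the main fit measure the spread between libraries within groups, pooled over all 8 groups and not only those compared.

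Values are FPKM (fragments per kilobase of transcript, scaled to the library), summed over the transcripts of a gene. The number of reads behind them is unknown, and an FPKM of 0 is given only as listed at 0. Summed FPKM per library lay between 1689486 and 2317294. Etv2 was listed at 0 in the library labelled Sox17-RACVEC 2 and at 458 and 378 FPKM in the other Sox17-RACVECs, while Sox17 was at 5.09, 40.1 and 200.1 and at 0 in the 3 RACVECs. Erg, also transduced, was at 3.91, 13.8 and 0.9 in RACVECs, 395, 1002 and 418 in Akt-RACVECs and 4.49, 387 and 0 in Sox17-RACVECs, and Fli1 was at least 178 in all of them. Akt1 was at 892, 559 and 656 in Akt-liver ECs and 884, 1323 and 916 in Sox17-RACVECs, which had no Akt virus, against 692, 551 and 666 in MACs. Its level thus did not separate the groups with the virus from those without it. Summed macrophage markers reached 7228 and 20080.5 FPKM in Akt-MAC 2 and 3, 172 in Akt-MAC 1 and at most 0.79 in MACs. In LSECs they lay between 8489 and 14078, beside 2386 to 12651 for hepatocytes, 10274 to 10897 for red blood cells and 346 to 475 for stellate cells. Summed mesenchymal markers were 3095 FPKM in Akt-LEC 1 and 1367 in Akt-liver EC 1, against at most 53.5 in the other cultured ECs. They were 906 to 5245 in RACVECs, which overlapped the 1730 to 7093 of MACs. Summed epithelial markers were 1270.5 in Akt-liver EC 1, 25.1 and 8.39 in the other Akt-liver ECs and 117 in Akt-LEC 1. Summed endothelial markers were at least 2175 in every converted and endothelial library and at most 95.5 in MACs and Akt-MACs. Of these 10 markers, Cdh5 (863, 1531 and 1887) and Egfl7 (671, 1761 and 1450) were the highest in RACVECs. Pecam1 was at 84.1, 155 and 15.3 there, Tek at 12.5, 17.1 and 27.9 and Cldn5 at 23.9, 0 and 2.85. Apart from Erg, given above, the rest ran from 2.36 (Esam, RACVEC 3) to 602 (Tie1, RACVEC 2). The sinusoidal markers Stab2 and Clec4g were at 2213, 2139.6 and 1863 and at 24439, 21133 and 31959 in LSECs, and at 173, 54.4 and 58.3 and at 6.53, 0 and 1.6 in Akt-liver ECs. Oit3 and Fcgr2b were also lower in every Akt-liver EC than in any LSEC. Lyve1 was instead at 2047, 1452 and 2164 in LSECs and 1725, 5333 and 7229 in Akt-liver ECs. Stab1 was at 1979, 1682 and 1801 in LSECs and 729, 3563 and 3935 in Akt-liver ECs. In bulk RNA, fewer cells of a type and less RNA per cell cannot be told apart.

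**Figure D1:**
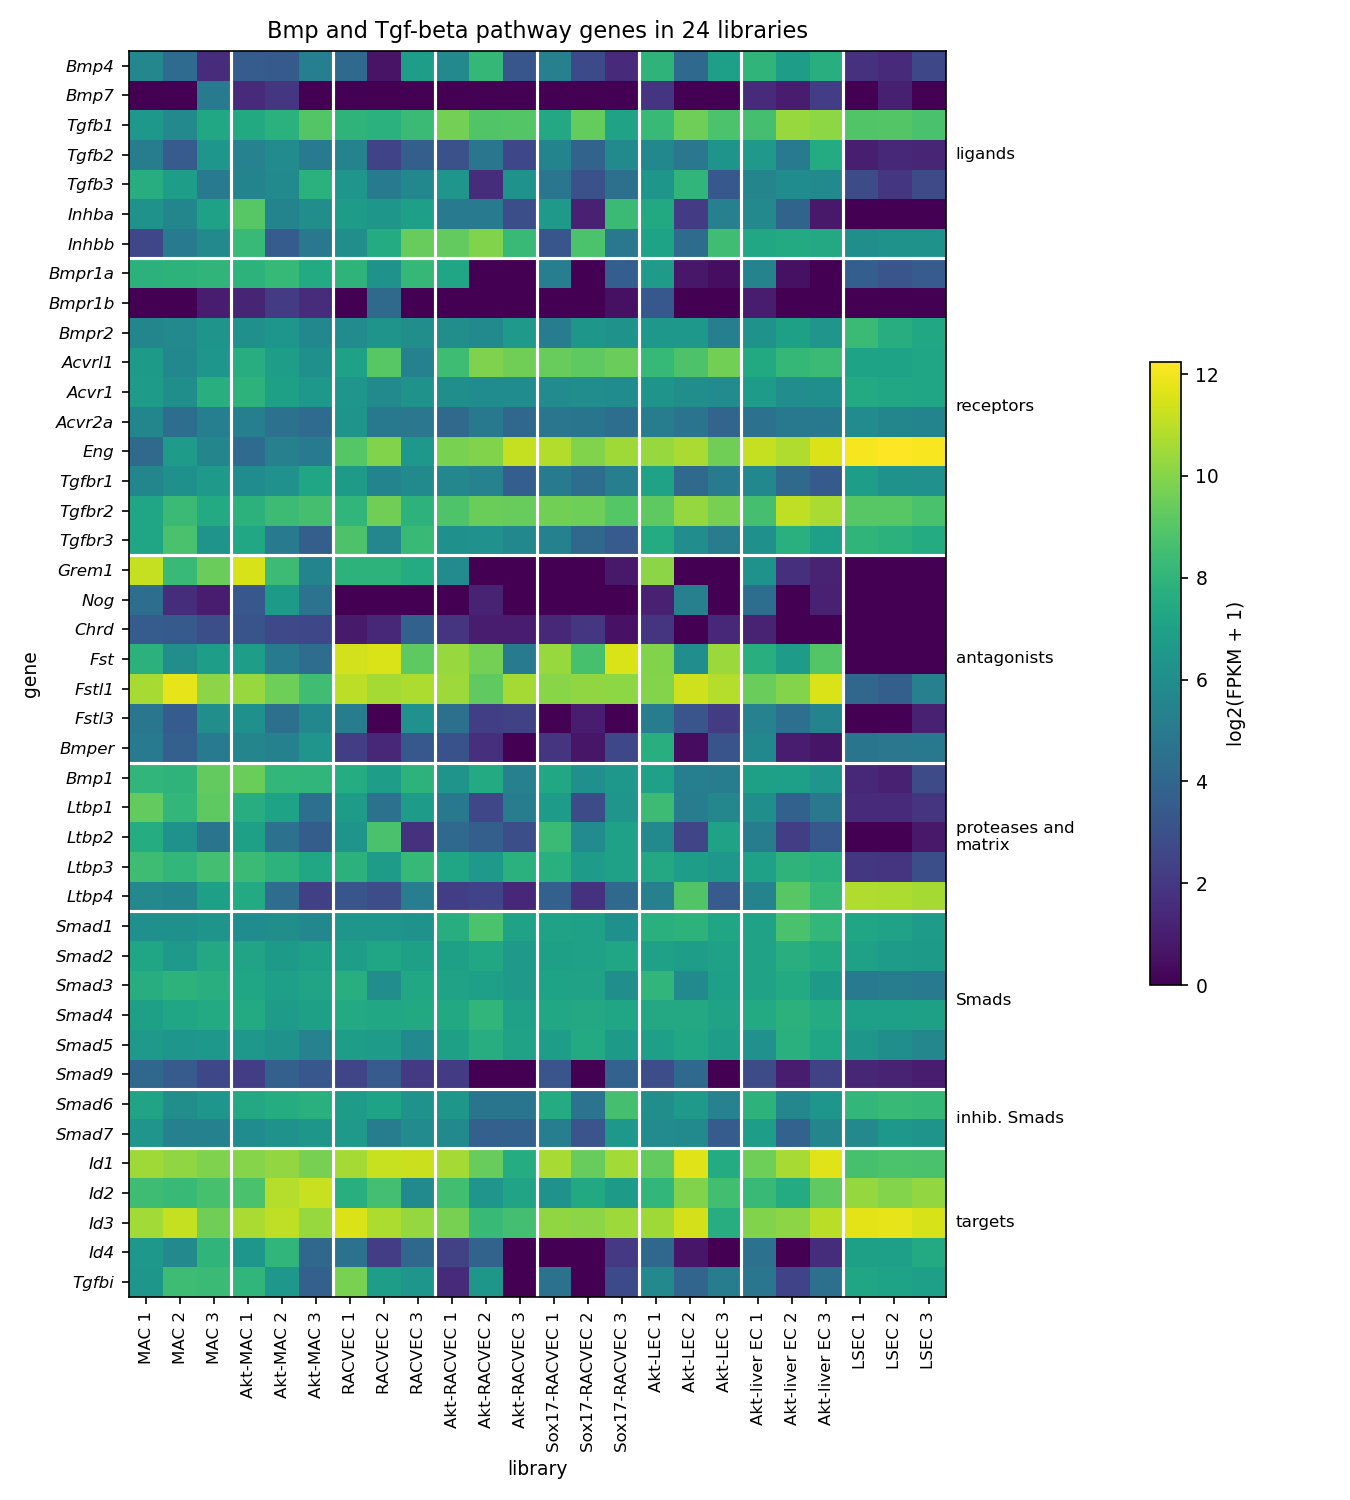
Level of each of the 42 genes, as log2(FPKM + 1) by colour from 0 (dark) to the highest value (yellow), in rows by role and in columns by library. Eng is yellow in the 3 LSECs and dark blue to green in MACs and Akt-MACs, Grem1 and Bmpr1a turn dark in most endothelial libraries, and Smad2 and Smad4 keep nearly 1 colour in all 24 libraries.

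The comparisons used limma with 1 fit to the log2(FPKM + 1) values of all 24 libraries. A change below is a difference on that scale with its standard error (SE), which understates the change of low genes, and a gene was called at a Benjamini-Hochberg adjusted p below 0.05 together with a change past 1 or -1. Of the 42 genes, 24 were called in at least 1 of the comparisons and 18 in none. The calls came from 3 comparisons. RACVECs against MACs gave 1 (Eng, higher), beside 1.36% of all genes called higher and 1.35% called lower. Akt-RACVECs against Akt-MACs gave 13 (4 higher and 9 lower), beside 6.15% and 13.4%. Akt-liver ECs against LSECs gave 14 (10 higher and 4 lower), beside 14.1% and 12.9%. RACVECs against MACs and Akt-RACVECs against Akt-MACs share no library, and 32 of the 42 genes had the same sign of change in both, a share of 76.2% beside 69.9% of all genes tested.

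With Akt on both sides, Eng, Acvrl1, Smad1 and Smad5 rose. Eng and Acvrl1 belong to the endothelial Bmp9 and Bmp10 branch, while Smad1 and Smad5 carry Bmp signals in general. Bmpr2, the type II receptor of that branch (change 0.04), and Smad9, the other Bmp Smad (change -2.39), were not called. Bmpr1a and Acvr1, type I receptors of wider use, fell, as did the antagonists Grem1, Nog and Bmper, the protease Bmp1, the inhibitory Smad6 and the targets Id2 and Id4. Between these groups, summed mesenchymal markers were at 761 to 2877 FPKM in Akt-MACs and 0.31 to 256 in Akt-RACVECs, and smooth muscle markers at 1360.0 to 6196 and 5.81 to 283. Their part in these changes was not tested. Without Akt, Eng was called alone. The median log2 fold change of the 42 genes was -1.48 with Akt, against -0.09 over all genes tested. Of the 42, 28 were below 0 and 14 above, beside 43.2% of all genes above 0. Without Akt the median was -0.07 against 0 over all genes. There, 24 of 42 were below 0 and 18 above, beside 48.4% of all genes above 0. In a fit of only Akt-RACVECs and Akt-MACs, 2 genes were called (Eng higher, Bmpr1b lower), beside 6.77% of all genes, and in a fit of only RACVECs and MACs 0 were, beside 0.274%. Without both Akt-MAC 2 and 3, an alternative chosen after seeing the data, 3 were called with Akt (Eng higher, Acvr1 and Bmp1 lower), beside 6.32% of all genes. What is called the study's own rule is the criterion of its methods as applied here to summed transcripts. It took averaged FPKM plus 1 changed past a log2 fold of 1 and an unadjusted p below 0.05 in a t-test with unequal variances. Over all genes it gave fewer than the paper reports in RACVECs against MACs and in Sox17-RACVECs against RACVECs. By this rule, 6 members were called with Akt, all lower, beside 7.31% of all genes in either direction. Without Akt it called 1, Tgfb1, beside 2.75%.

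**Figure D2:**
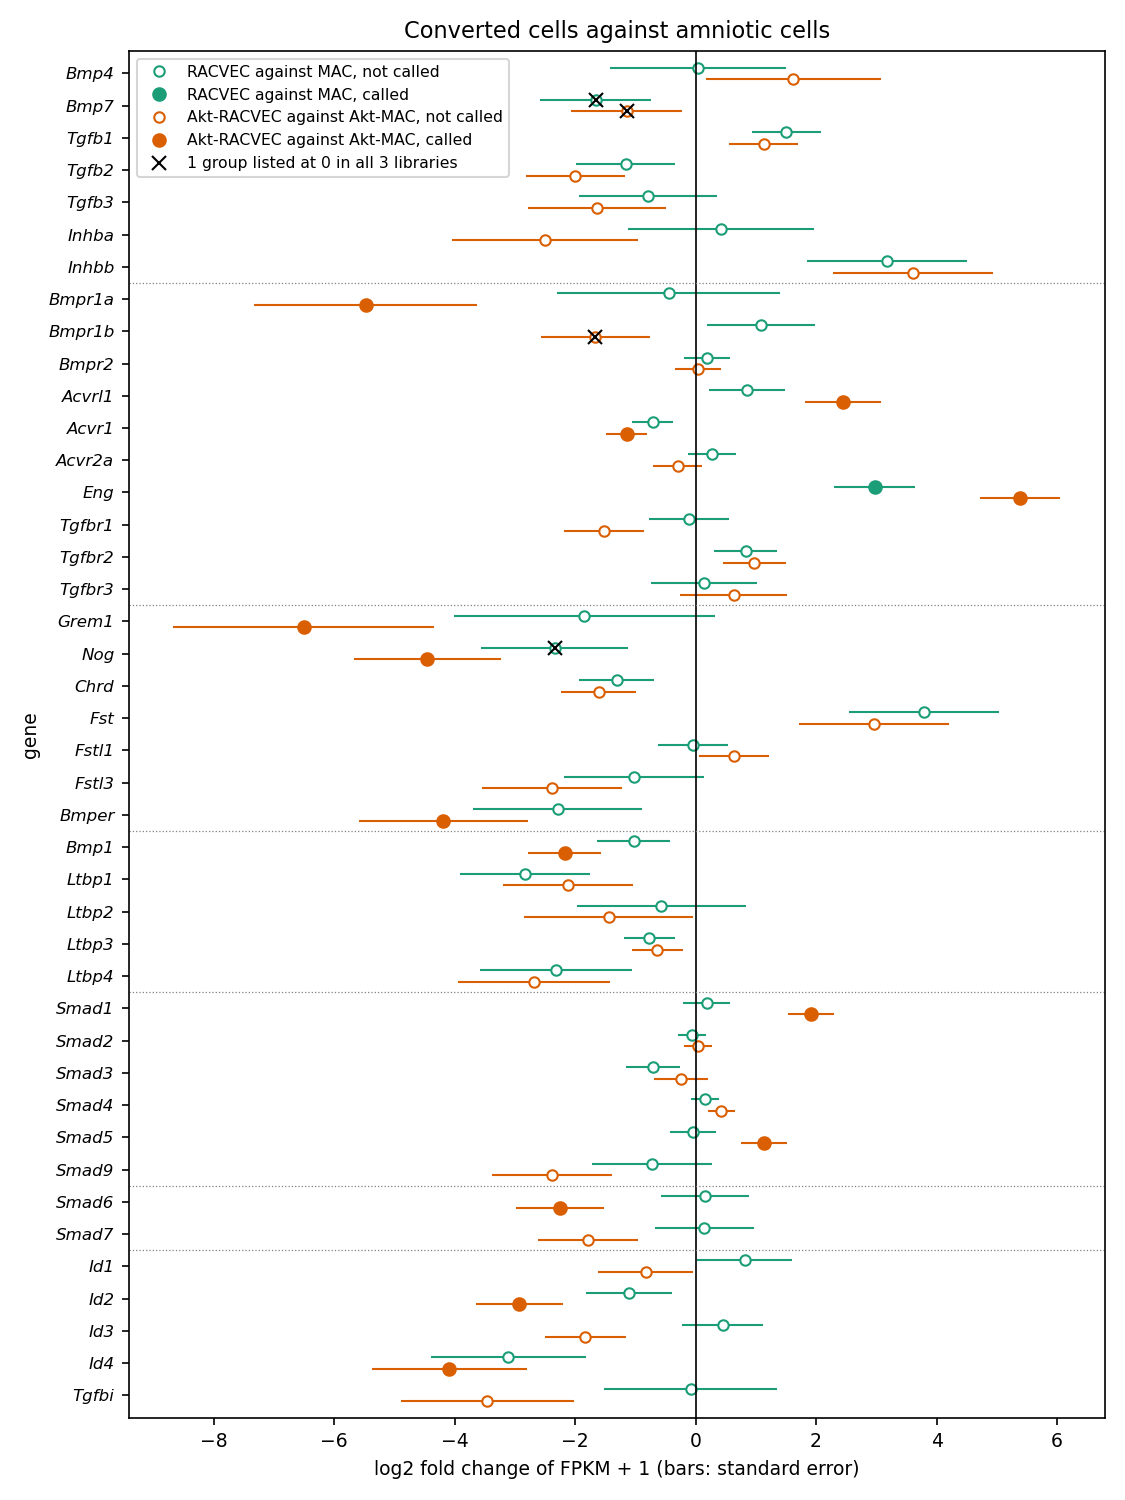
Log2 fold change of FPKM + 1 (horizontal axis) of each of the 42 genes in RACVECs against MACs (green) and Akt-RACVECs against Akt-MACs (orange), with 3 libraries a group; bars are standard errors, filled points are called, and a cross marks a group listed at 0 in all 3 libraries. The orange points of Eng, Acvrl1, Smad1 and Smad5 lie right of 0 and those of Grem1, Bmpr1a, Nog, Bmper and Id4 left of -4.

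Eng, Bmpr1a, Grem1 and Bmper had the largest changes between converted and amniotic cells among called members with an entry in the RefSeq promoter table. They are shown by the 250 bases upstream of their transcription start (build GRCm38.p6, 5′ to 3′ on the strand of the gene), because the transduced factors are Ets proteins. Nog has no entry. Capitals mark the Ets hexamers AGGAAG or AGGAAA or CGGAAG or CGGAAA and the GC-rich palindrome GGCGCC, known as a binding sequence of Smad1 and Smad5, each searched on both strands.
Eng, chr2:32646345-32646594, plus strand: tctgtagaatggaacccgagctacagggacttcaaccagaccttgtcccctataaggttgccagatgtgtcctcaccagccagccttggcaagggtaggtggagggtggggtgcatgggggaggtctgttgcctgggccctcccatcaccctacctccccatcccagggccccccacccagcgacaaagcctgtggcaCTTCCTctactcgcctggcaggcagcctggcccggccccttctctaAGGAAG
Bmpr1a, chr14:34502547-34502796, minus strand: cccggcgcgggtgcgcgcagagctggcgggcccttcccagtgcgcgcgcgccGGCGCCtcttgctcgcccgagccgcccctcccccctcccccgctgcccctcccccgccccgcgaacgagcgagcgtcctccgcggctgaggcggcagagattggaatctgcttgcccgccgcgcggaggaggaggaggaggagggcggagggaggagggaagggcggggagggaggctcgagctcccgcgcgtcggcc
Grem1, chr2:113758649-113758898, minus strand: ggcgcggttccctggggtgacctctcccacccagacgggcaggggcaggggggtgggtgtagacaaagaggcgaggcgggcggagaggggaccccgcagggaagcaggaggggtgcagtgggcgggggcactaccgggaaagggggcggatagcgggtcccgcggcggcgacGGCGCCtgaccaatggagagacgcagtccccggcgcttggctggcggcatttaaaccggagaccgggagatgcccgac
Bmper, chr9:23222826-23223075, plus strand: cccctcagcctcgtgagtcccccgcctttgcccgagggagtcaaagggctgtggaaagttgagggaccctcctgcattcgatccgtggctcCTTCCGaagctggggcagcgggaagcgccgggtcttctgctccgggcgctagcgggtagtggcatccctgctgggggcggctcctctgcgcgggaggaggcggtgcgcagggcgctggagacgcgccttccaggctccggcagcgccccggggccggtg
The stretch of Eng held 2 Ets hexamers, whose first bases lay 52 and 6 bases before the start, and the stretch of Bmper held 1. Those of Bmpr1a and Grem1 held none and had 1 GGCGCC each. An Ets hexamer stood in 57.2% of the 32851 stretches of the table and in 18 of the 39 stretches of the 31 members found there. At least 2 stood in 24.2% of all. GGCGCC stood in 9.59% of all stretches and in 12 of the 39. A hexamer in these windows is a description and not a binding site.

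Endoglin is the co-receptor that presents Bmp9 and Bmp10 to Acvrl1, and Eng (mm9 chromosome 2, 32502115 to 32538189) was called in both comparisons. Its level was 18, 103 and 47.1 FPKM in MACs and 18.7, 39.8 and 32.3 in Akt-MACs. It was 515, 967 and 91.9 FPKM in RACVECs, 885, 972 and 2263 in Akt-RACVECs and 1807, 974 and 1442 in Sox17-RACVECs. The lowest RACVEC lay below the highest MAC, whereas the Akt-RACVECs and Akt-MACs did not overlap. Relative to MACs, RACVECs had a change of 2.98 (SE 0.67, adjusted p = 0.0193), but the call was lost when MAC 1, MAC 3, RACVEC 1 or RACVEC 2 was left out. Akt-RACVECs against Akt-MACs had a change of 5.39 (SE 0.67, adjusted p = 4.97e-05), called in 6 of 6 fits that left out 1 library and also without both Akt-MAC 2 and 3. Among the ECs, Eng was 1309, 1655 and 772 FPKM in the Akt-LECs, 2301, 1747 and 3071 in the Akt-liver ECs and 4243, 4807 and 4454 in the LSECs. Every LSEC lay above every other library of the study.

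Acvrl1 (mm9 chromosome 15, 100958953 to 100975767) encodes the type I receptor of the same complex. It was listed at 99.2, 52.1 and 86.3 FPKM in MACs, 198, 111 and 69.5 in Akt-MACs and 126, 528 and 40.1 in RACVECs. The converted cells with a further factor had 349.7, 940.0 and 771 FPKM in Akt-RACVECs and 678, 583 and 690.0 in Sox17-RACVECs, and the ECs 295, 451 and 794 FPKM in the Akt-LECs, 170.1, 285 and 321 in the Akt-liver ECs and 136, 135 and 145 in the LSECs. RACVEC 2 was high and RACVEC 3 lay below every MAC, so RACVECs and MACs overlapped. Akt-RACVECs lay above all Akt-MACs, with a change of 2.45 (SE 0.64, adjusted p = 0.0111), called in 6 of 6 fits without 1 library and not called without both Akt-MAC 2 and 3. The Sox17-RACVECs lay above all 3 RACVECs, but the change was not called (change 2.21, SE 0.64, adjusted p = 0.431), and that of Akt-RACVECs against RACVECs was not either (change 2.18, SE 0.64, adjusted p = 0.109).

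Bmpr1a (mm9 chromosome 14, 35223920 to 35316527), the type I receptor for Bmp2 and Bmp4, showed the opposite pattern. It was at 233, 239 and 255 FPKM in MACs, 239, 296 and 180.0 in Akt-MACs and 251, 77.9 and 287 in RACVECs. It was listed at 147, 0 and 0 FPKM in Akt-RACVECs and 36.3, 0 and 11.6 in Sox17-RACVECs, at 107, 0.73 and 0.39 FPKM in the Akt-LECs compared with 43.2, 0.47 and 0 in the Akt-liver ECs, and at 11.7, 8.25 and 10.3 FPKM in LSECs. RACVECs thus overlapped with MACs, whereas Akt-RACVECs lay below every Akt-MAC, and Akt-RACVEC 1 was the only library of its group above 0. Akt-RACVECs against Akt-MACs had a change of -5.47 (SE 1.85, adjusted p = 0.0388). The call held in 1 of 6 fits that left out a library, the fit without Akt-RACVEC 1. Across these groups, the libraries with the highest Bmpr1a in the Akt-RACVECs, Akt-LECs and Akt-liver ECs were number 1 of each group, which also had the highest summed mesenchymal markers of their groups (256, 3095 and 1367 FPKM). In the Akt-MACs these markers summed to between 761 and 2877, and their part in the fall of Bmpr1a was not tested. Bmpr1b, a close relative, was at most 17.9 FPKM in any library.

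Acvr1 (mm9 chromosome 2, 58241055 to 58419568), also called Alk2, is a type I receptor for Bmp6 and Bmp7. Its level was 109, 68.2 and 205 FPKM in MACs and 242, 122 and 90.4 in Akt-MACs, and it was 84.3, 54.9 and 73.1 FPKM in RACVECs, 67.2, 60.02 and 59.9 in Akt-RACVECs and 59.2, 62.6 and 59.7 in Sox17-RACVECs. The ECs had 79.1, 64.6 and 58.1 FPKM in the Akt-LECs, 108, 62.3 and 68.1 in the Akt-liver ECs and 176, 153 and 148 in the LSECs. The converted groups sat in a narrow band below all Akt-MACs and LSECs. Akt-RACVECs against Akt-MACs gave a change of -1.14 (SE 0.34, adjusted p = 0.0228), a fall that was also called without both Akt-MAC 2 and 3, but not without Akt-MAC 1, Akt-RACVEC 2 or Akt-RACVEC 3. No type II receptor was called here. Bmpr2, the partner of Acvrl1, lay between 54 and 94.9 FPKM in Akt-RACVECs and between 51.9 and 84 in Akt-MACs, and Acvr2a between 15.8 and 29.4 and between 18.2 and 37.3. The Tgf-beta receptors Tgfbr1, Tgfbr2 and Tgfbr3 were not called in either comparison, with changes in Akt-RACVECs against Akt-MACs of -1.52, 0.97 and 0.63.

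Among the receptor Smads, Smad1 and Smad5 carry the Bmp signal. Smad1 (mm9 chromosome 8, 81862294 to 81923417) was at 68.7, 68.4 and 80.0 FPKM in MACs, 61.3, 65.4 and 51.1 in Akt-MACs and 86.2, 85.1 and 76 in RACVECs, and at 198, 434 and 133 FPKM in Akt-RACVECs and 132, 127 and 68.7 in Sox17-RACVECs. In ECs it was 217, 236 and 152 FPKM in the Akt-LECs, 129.8, 416 and 269 in the Akt-liver ECs and 147, 133 and 103 in the LSECs. Akt-RACVECs lay above every library of the Akt-MACs, MACs and RACVECs. Against Akt-MACs they had a change of 1.92 (SE 0.39, adjusted p = 0.00243), called in 6 of 6 fits without 1 library, and the difference from RACVECs was not called (change 1.44, SE 0.39, adjusted p = 0.0883). Smad5 (mm9 chromosome 13, 56804371 to 56843738) had 96.6, 85.5 and 90.1 FPKM in MACs, 91.9, 76.1 and 41.6 in Akt-MACs and 116, 105 and 55.4 in RACVECs, then 125, 197 and 130.2 FPKM in Akt-RACVECs and 110.0, 178 and 98.9 in Sox17-RACVECs. The ECs had 118, 159.7 and 115 FPKM in the Akt-LECs, 72.8, 215 and 149 in the Akt-liver ECs and 86.8, 67.1 and 49.1 in the LSECs. Akt-RACVECs lay above all Akt-MACs, with a change of 1.14 (SE 0.38, adjusted p = 0.0362), a call kept without Akt-MAC 1 and lost without any of the other 5 libraries. Neither Smad was called without both Akt-MAC 2 and 3. Smad2 and Smad4, the Tgf-beta receptor Smad and the shared partner, had the most even levels of the 42 genes and were called in none of the comparisons. Their FPKM lay between 93.2 and 205 and between 104 and 259.9 over all 24 libraries, a ratio of highest to lowest of 2.2 and 2.5. Smad9, the third receptor Smad of the Bmp side, was at most 17.1 FPKM in any library, and the inhibitory Smad7 lay between 8.28 and 110.3. Neither was called in any comparison, with log2 fold changes in Akt-RACVECs against Akt-MACs of -2.39 and -1.78.

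**Figure D3:**
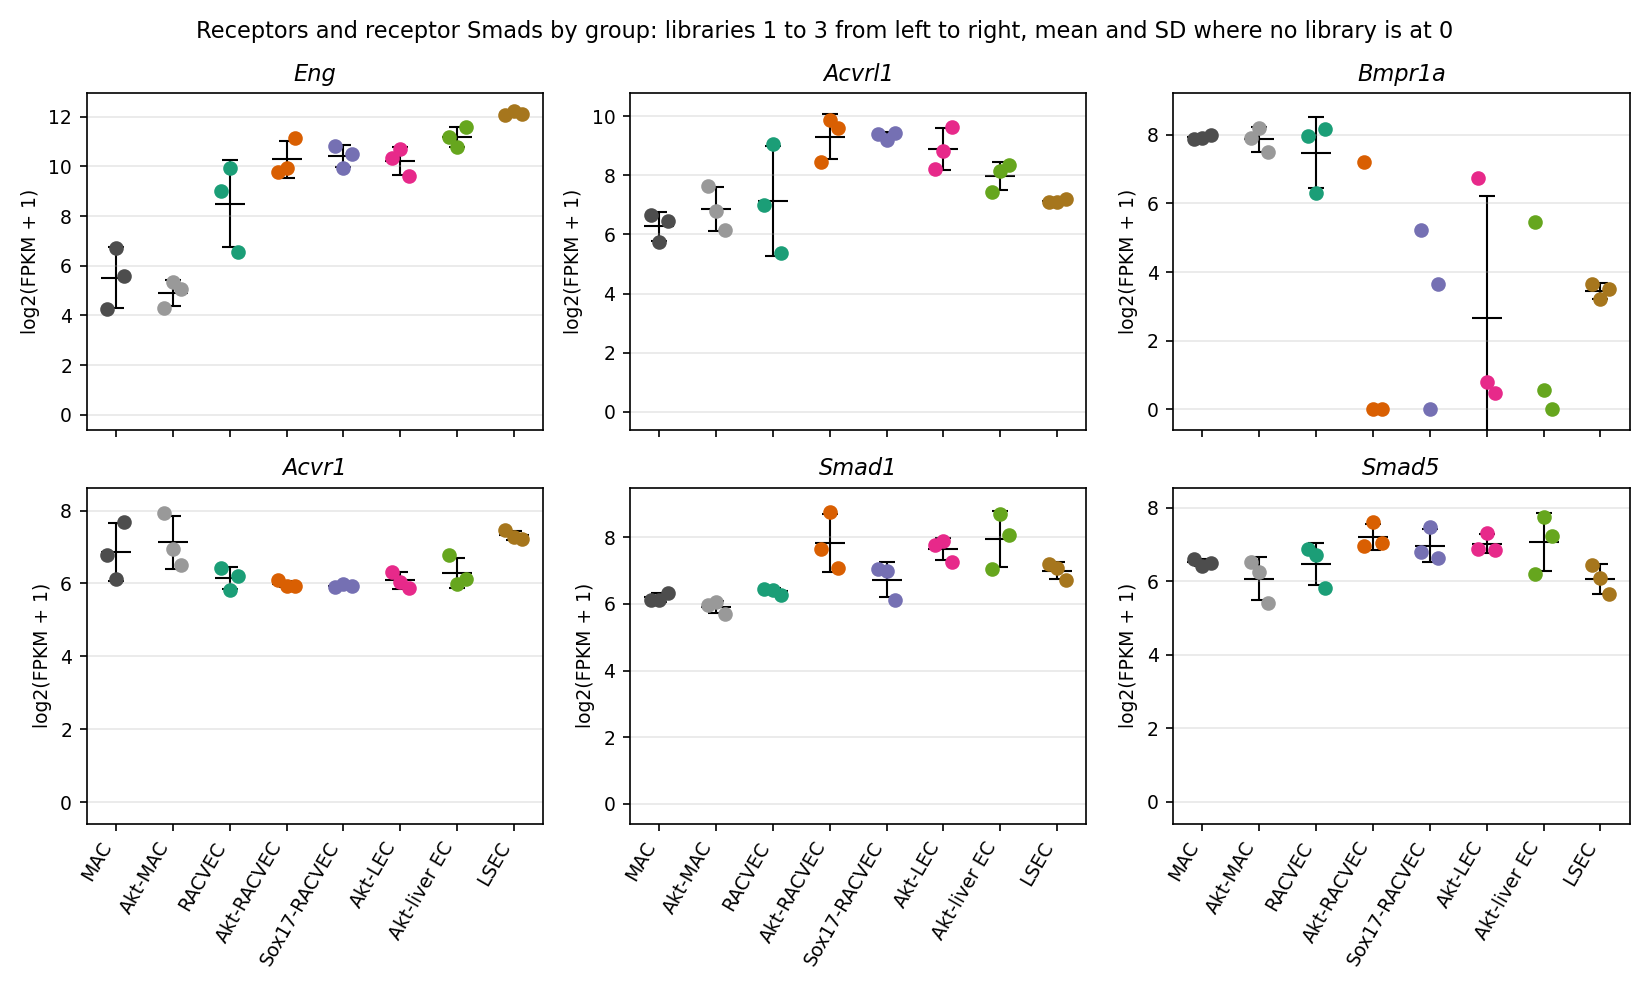
Log2(FPKM + 1) of 4 receptors and 2 Smads (vertical axes) in the 8 groups; points are the 3 libraries of a group, lines their mean and SD where no library is at 0. Eng and Acvrl1 lie higher in Akt-RACVECs than in Akt-MACs with no overlap, and Bmpr1a is at 0 in 2 of 3 Akt-RACVECs and above 7 in every MAC and Akt-MAC.

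The secreted antagonists bind ligands outside the cell. Grem1 (gremlin 1, mm9 chromosome 2, 113586321 to 113598803), which traps Bmp2, Bmp4 and Bmp7, was at 2318, 307 and 688 FPKM in MACs, 2918, 336 and 45 in Akt-MACs and 242, 236 and 183 in RACVECs. It was at 59.7, 0 and 0 FPKM in Akt-RACVECs and 0, 0 and 0.81 in Sox17-RACVECs, and at 1112, 0 and 0 FPKM in the Akt-LECs, 73.8, 2.28 and 1.3 in the Akt-liver ECs and 0, 0 and 0 in the LSECs. Amniotic cells and RACVECs all expressed it, and most other libraries were at or near 0, with number 1 of the Akt-RACVECs, Akt-LECs and Akt-liver ECs as exceptions. Akt-RACVEC 1 lay above Akt-MAC 3, so those groups overlapped. Between them there was a change of -6.50 (SE 2.17, adjusted p = 0.0365), called without Akt-MAC 3 or Akt-RACVEC 1 and lost without any of the other 4. Nog (noggin, mm9 chromosome 11, 89161952 to 89163873) was at 20.5, 2.04 and 0.97 FPKM in MACs and 8.92, 99.1 and 24 in Akt-MACs. It was listed at 0, 0 and 0 FPKM in RACVECs, 0, 1.36 and 0 in Akt-RACVECs and 0, 0 and 0 in Sox17-RACVECs. The cultured ECs had 1.15, 39.8 and 0 FPKM in the Akt-LECs compared with 20.2, 0 and 1.15 in the Akt-liver ECs and LSECs 0 in each library. Akt-RACVECs lay below all Akt-MACs, with a change of -4.45 (SE 1.22, adjusted p = 0.0143), lost without Akt-MAC 2.

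Bmper (mm9 chromosome 9, 23027520 to 23289646), a Bmp-binding protein first described in endothelial precursors, was at 32.8, 12.3 and 33 FPKM in MACs, 46.7, 41.1 and 81.5 in Akt-MACs and 3.75, 1.68 and 9.23 in RACVECs. The others had 7.5, 2.24 and 0 FPKM in Akt-RACVECs and 2.57, 0.68 and 5.21 in Sox17-RACVECs, and 208, 0.34 and 8.05 FPKM in the Akt-LECs, 52, 0.96 and 0.64 in the Akt-liver ECs and 26, 27.7 and 30.3 in the LSECs. Akt-RACVECs lay below all Akt-MACs, with a change of -4.19 (SE 1.40, adjusted p = 0.0369), a call kept without Akt-RACVEC 1 and lost without any of the other 5. The highest Bmper of the study, in Akt-LEC 1, stood beside high mesenchymal markers. The LSECs had similar levels to MACs, with mesenchymal sums of 77.5 to 186 FPKM beside the macrophage, hepatocyte and stellate markers given above. The part of any of these cells in Bmper was not tested. Follistatin (Fst) binds activins. Its level was 233, 64.3 and 114 FPKM in MACs, 112, 31.1 and 19.7 in Akt-MACs and 2673, 2954 and 591 in RACVECs, and 1286, 822 and 33.2 FPKM in Akt-RACVECs and 1285, 405 and 2943 in Sox17-RACVECs. Every RACVEC lay above every MAC, but the change was not called (change 3.79, SE 1.25, adjusted p = 0.107), nor was that with Akt (change 2.97, SE 1.25, adjusted p = 0.0908). Chordin (Chrd), another Bmp trap, was at most 12.7 FPKM in any library. Chrd, Fstl1 and Fstl3 were not called in these comparisons.

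No ligand was called in either comparison. Tgfb1 had 91.5, 52.4 and 162 FPKM in MACs and 247, 227 and 327 in RACVECs, without overlap, and a log2 fold change of 1.51 (limma, adjusted p = 0.154). Inhbb, the beta B chain of activin, had 5.07, 33.4 and 52.8 FPKM in MACs and 298, 10.8 and 28.7 in Akt-MACs and 66, 185 and 663 FPKM in RACVECs and 617, 977 and 311 in Akt-RACVECs. Its log2 fold changes were 3.17 without Akt and 3.61 with Akt, neither called. Bmp7 was listed at 0 in all 9 libraries labelled as converted, Sox17-RACVEC 2 included, and was at 30.5 in MAC 3. Bmp1 (mm9 chromosome 14, 70874364 to 70920067) is a protease of procollagens and chordin and not a ligand, despite its name. It was at 266, 251 and 628 FPKM in MACs, 712, 273 and 268 in Akt-MACs and 188, 111 and 238 in RACVECs, and at 80.8, 176 and 38.8 FPKM in Akt-RACVECs and 154, 69.2 and 91.6 in Sox17-RACVECs. Akt-RACVECs lay below all Akt-MACs, with a change of -2.17 (SE 0.61, adjusted p = 0.016), also called without both Akt-MAC 2 and 3 and lost without Akt-MAC 1 or Akt-RACVEC 3. The 4 matrix genes Ltbp1 to Ltbp4, named as latent Tgf-beta binding proteins, had negative log2 fold changes in both comparisons. These ran from -2.83 (Ltbp1, without Akt) to -0.57 (Ltbp2, without Akt), and none was called.

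The Id genes encode inhibitors of helix-loop-helix factors and are the classical early Bmp targets. Id1 and Id3 were abundant in every group, with FPKM from 182 to 3202 and from 194 to 3507, and were called in no comparison. Id2 (mm9 chromosome 12, 25778666 to 25780957) was at 349, 307 and 409 FPKM in MACs, 422, 1889 and 2391 in Akt-MACs and 208, 375 and 55.6 in RACVECs, and at 368, 82.4 and 141 FPKM in Akt-RACVECs and 73.3, 172 and 101 in Sox17-RACVECs. The ECs had 274, 968 and 374 FPKM in the Akt-LECs, 310.3, 184 and 601 in the Akt-liver ECs and 1241, 1011 and 1206 in the LSECs. Akt-RACVECs lay below all Akt-MACs, with a change of -2.92 (SE 0.72, adjusted p = 0.0079), called in 6 of 6 fits without 1 library. Akt-MAC 2 and 3, the libraries with high macrophage markers, had the highest Id2 of the study, and without both of them the change was not called (change -1.37, adjusted p = 0.425). Id4 (mm9 chromosome 13, 48356796 to 48359405) was at 90.3, 53.4 and 259.5 FPKM in MACs, 85.8, 260.2 and 15.8 in Akt-MACs and 23.6, 3.64 and 16.7 in RACVECs, and at 4.17, 14.1 and 0 FPKM in Akt-RACVECs and 0, 0 and 3.15 in Sox17-RACVECs. Each RACVEC lay below each MAC and each Akt-RACVEC below each Akt-MAC, with a change of -4.09 (SE 1.29, adjusted p = 0.0286) under Akt and no call without it (change -3.11, SE 1.29, adjusted p = 0.191). Smad6 (mm9 chromosome 9, 63800953 to 63869866), an inhibitory Smad induced by Bmp signals, had 141, 64.6 and 84.9 FPKM in MACs, 164, 192 and 215 in Akt-MACs and 105, 134 and 76 in RACVECs, then 86.6, 26.1 and 25.9 FPKM in Akt-RACVECs and 186, 23.9 and 389 in Sox17-RACVECs. Akt-RACVECs lay below all Akt-MACs, with a change of -2.25 (SE 0.74, adjusted p = 0.0337). The call of Id4 was kept without Akt-MAC 3 or Akt-RACVEC 2 and that of Smad6 without Akt-RACVEC 1, and each was lost without any other library.

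**Figure D4:**
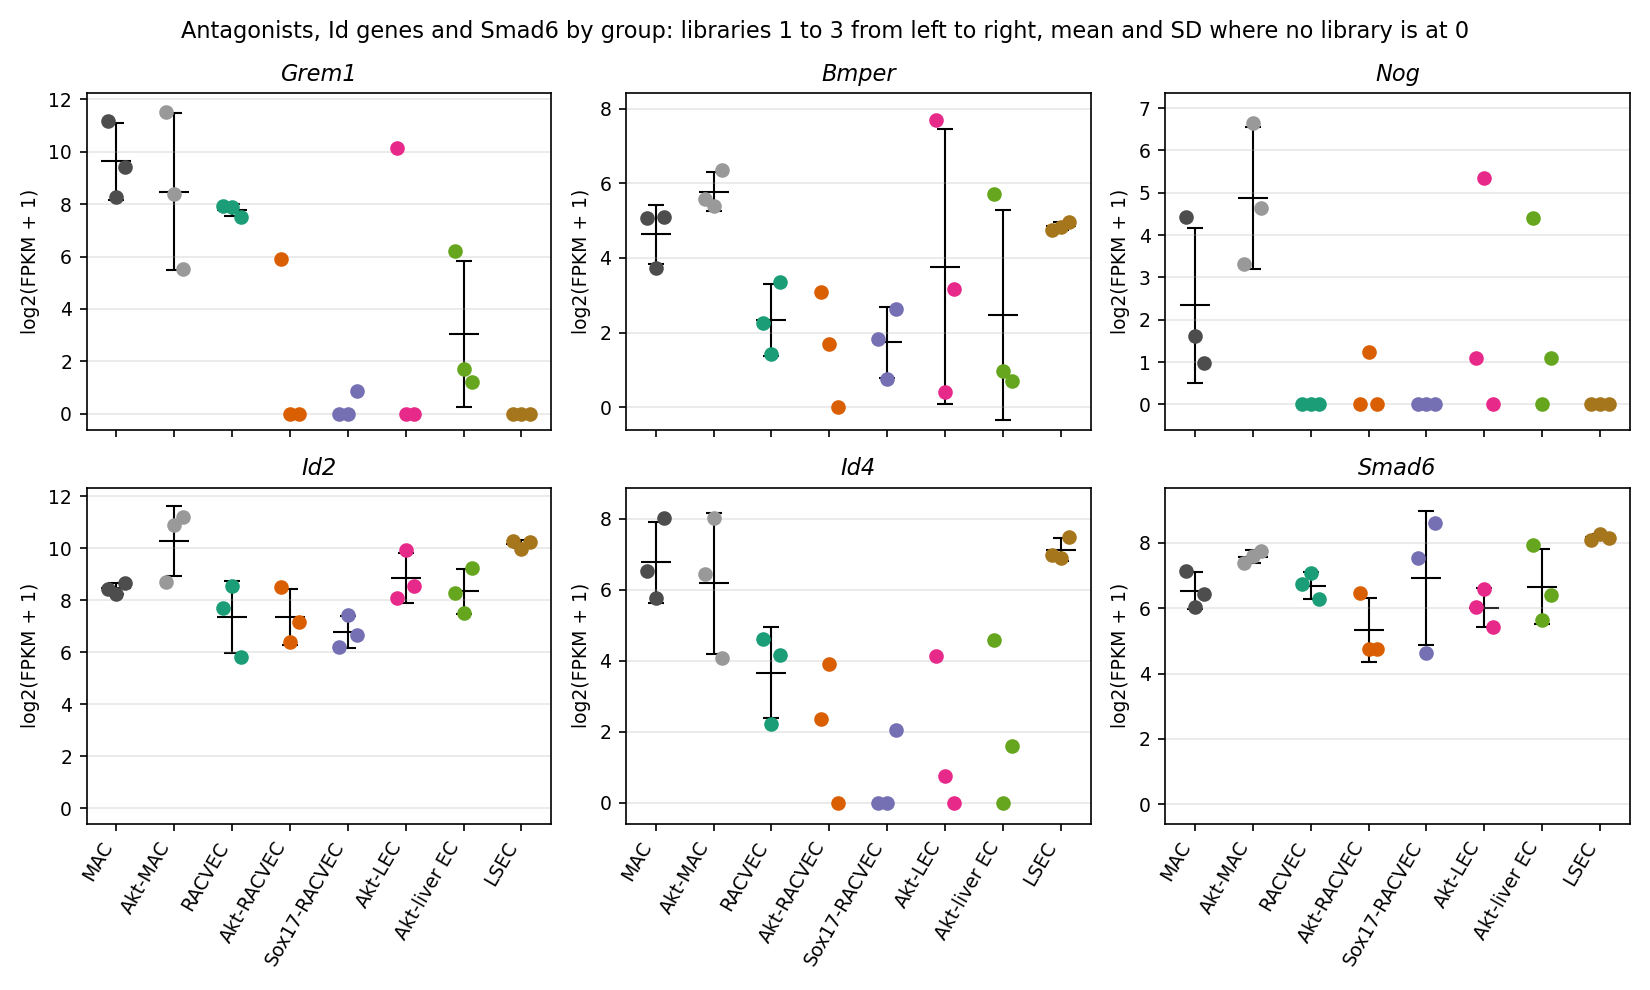
Log2(FPKM + 1) of 3 antagonists, 2 Id genes and Smad6 (vertical axes) in the 8 groups; points are the 3 libraries of a group, lines their mean and SD where no library is at 0. Grem1 is at 0 in 2 of 3 Akt-RACVECs and all LSECs, Id2 is highest in Akt-MAC 2 and 3, and Id4 is higher in every LSEC than in any cultured EC.

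Added factors within a cell type gave no called member. Akt-RACVECs against RACVECs gave 0 of 42 with limma, 9 at an unadjusted p below 0.05 and 2 by the study's own rule (Inhba and Grem1, both lower). Over all genes, limma called 0.221% higher and 0.0401% lower, 15.9% had an unadjusted p below 0.05 and 3.43% passed the study's rule. The 9 were Grem1, Bmpr1a, Tgfbi, Id1, Id3 and Acvr2a with lower values and Smad1, Eng and Acvrl1 with higher values. Beside these, summed mesenchymal markers were 906 to 5245 FPKM in RACVECs and 0.31 to 256 in Akt-RACVECs, and endothelial markers 2175 to 4493 and 14179 to 23164. Sox17-RACVECs against RACVECs gave 0 with limma, 8 at an unadjusted p below 0.05 and 1 by that rule (Grem1, lower). The shares of all genes were 0% called higher and 0.00668% lower by limma, 6.62% at the unadjusted p and 1.02% by the rule. Here Grem1, Bmpr1a, Tgfbi, Tgfbr3, Fstl3 and Id4 had lower values and Eng and Acvrl1 higher ones, beside mesenchymal sums of 4.93 to 439.5 FPKM in Sox17-RACVECs. The part of these markers was not tested. Tgfbi, a matrix protein named for its induction by Tgf-beta, had 88.6, 339 and 322 FPKM in MACs, 263, 91.7 and 12.4 in Akt-MACs and 871, 110.0 and 85 in RACVECs, and 1.79, 87.4 and 0 FPKM in Akt-RACVECs and 23.4, 0 and 5.63 in Sox17-RACVECs. Its log2 fold change was -5.01 with Akt and -5.22 with Sox17. Tgfbr3, the co-receptor betaglycan, had 445, 49.4 and 298 FPKM in RACVECs, 68.6, 72.6 and 51.7 in Akt-RACVECs and 40.9, 16 and 10.6 in Sox17-RACVECs, with a log2 fold change of -3.22 in Sox17-RACVECs. The RACVECs serve as controls in both of these comparisons. With RACVEC 2 left out, Acvrl1 was called higher in both, and Tgfbr3 and Fstl3 lower in Sox17-RACVECs.

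The library labelled Sox17-RACVEC 2 stood apart from its group in several members. Its FPKM was 428 for Inhbb against 8.7 and 29.2 in the others, and 656 for Tgfb1 against 167 and 133. It was lower in Inhba (1.2 against 92.8 and 323) and Smad6 (23.9 against 186 and 389). Its mesenchymal markers summed to 4.93 FPKM, against 333 and 439.5, and its endothelial markers to 18255, against 6138 and 5553. Pecam1 was at 586, 5144 and 714 in the 3 libraries. Its Etv2, listed at 0, goes against its label, while its Erg was at 387. Without it, 0 of 42 members were called against RACVECs.

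Akt-MACs against MACs gave 0 of 42 with limma, 5 at an unadjusted p below 0.05 (Tgfb1 and Id2 higher, Ltbp1, Tgfbr3 and Fstl1 lower) and 0 by the study's own rule. Over all genes the shares were 2.59% called higher and 0.214% lower, 14% at the unadjusted p and 1.04% by the rule. Id2 was called higher when Akt-MAC 1 was left out. The Akt effect in RACVECs was set against that in MACs by an interaction contrast, which called 0 members with limma and 6 at an unadjusted p below 0.05, beside 0.00668% and 0.0936% of all genes called higher and lower and 12.1% at the unadjusted p. The lowest adjusted p of a member was that of Smad1, with an estimate of 1.73 (adjusted p = 0.186), so a difference of the Akt effect on the 42 genes between converted and amniotic cells was not shown.

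Converted cells were also set against cultured lung ECs with the same Akt. Akt-RACVECs against Akt-LECs gave 0 members with limma, 3 at an unadjusted p below 0.05 and 0 by the study's own rule. All genes gave 0% called higher, 0.00668% lower, 8.68% at the unadjusted p and 0.8% by the rule. The 3 were Ltbp4, Tgfb2 and Id2, all with lower values in Akt-RACVECs. Ltbp4 was at 3.86, 4.58 and 1.54 FPKM in Akt-RACVECs and 39.8, 486 and 10.4 in Akt-LECs, without overlap. Akt-LECs against Akt-liver ECs gave 0 members with limma, 0 at an unadjusted p below 0.05 and 0 by that rule, with 0% of all genes called higher, 0.0134% lower, 4.22% at the unadjusted p and 0.544% by the rule. Without both Akt-LEC 1 and Akt-liver EC 1 it was again 0. The spread within these groups was wide, as in Grem1 of Akt-LECs (1112, 0 and 0 FPKM), and these p-values do not show that the lung and liver ECs were alike.

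Cultured liver ECs differed from freshly sorted LSECs in 14 of the 42 genes, beside 14.1% of all genes called higher and 12.9% called lower. The ligands Bmp4, Tgfb2 and Tgfb3, the antagonists Fst, Fstl1 and Fstl3, the protease Bmp1, the matrix proteins Ltbp1 and Ltbp3 and the receptor Smad of Tgf-beta, Smad3, were higher in culture. Id4 and the receptors Acvr1, Tgfbr1 and Bmpr2 were lower. The median log2 fold change was 0.88 over the 42 genes and 0.08 over all genes, and 27 of 42 were above 0, beside 53.8% of all genes. The Akt virus, the medium and culture all separate the groups. So do the summed macrophage, hepatocyte and red cell markers, which were higher in every LSEC than in any Akt-liver EC. Summed stellate markers overlapped, at 12.6 to 366 FPKM in Akt-liver ECs and 346 to 475 in LSECs, with Des at 267 in Akt-liver EC 1. Of that list, Lrat and Colec10 were listed at 0 in every Akt-liver EC and at 52.7 to 59 and 98.9 to 127 in LSECs. Hgf and Ngfr were also higher in every LSEC, while Reln, Des and Pdgfrb overlapped. The part of these markers was not tested.

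Ltbp3 (mm9 chromosome 19, 5740904 to 5758532) had 126, 245 and 213 FPKM in Akt-liver ECs and 2.93, 2.55 and 6.58 in LSECs, against 90.4 or more in every other library. Fstl1 (mm9 chromosome 16, 37776959 to 37836600), a secreted glycoprotein related to follistatin, had 698, 1002 and 2941 FPKM in Akt-liver ECs and 15.6, 12.1 and 39.5 in LSECs and 359.8 or more elsewhere. Bmp1 had 122, 119.6 and 85.7 FPKM in Akt-liver ECs and 1.68, 1.16 and 6.06 in LSECs and 126, 37.6 and 34.5 FPKM in Akt-LECs. For each of these 3 genes, the LSECs were the 3 lowest libraries of the study. Akt-liver ECs against LSECs had a change of 5.32 (SE 0.42, adjusted p = 1.28e-08) for Ltbp3. For Fstl1 there was a change of 5.94 (SE 0.58, adjusted p = 2.83e-07), and for Bmp1 a change of 4.98 (SE 0.61, adjusted p = 4.74e-06). Ltbp1 (mm9 chromosome 17, 75404908 to 75791852) had 68.3, 12.8 and 28.5 FPKM in Akt-liver ECs and 1.74, 1.71 and 2.56 in LSECs with a change of 3.35 (SE 1.08, adjusted p = 0.0221), kept without Akt-liver EC 2 or LSEC 3 and lost without any of the other 4. In the other groups Ltbp1 was 636, 276 and 589 FPKM in MACs, 195, 134 and 20.8 in Akt-MACs and 108, 23.7 and 106 in RACVECs, and 30.1, 5.08 and 35.7 FPKM in Akt-RACVECs, 106, 6.01 and 82.1 in Sox17-RACVECs and 332, 35.2 and 49.1 in Akt-LECs. Ltbp4, the binding protein that elastic fibres need, was highest in LSECs at 1756, 1674 and 1540.0, against 43.6, 528 and 288 in Akt-liver ECs, without overlap and not called (log2 fold change -3.13, adjusted p = 0.0629).

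Fst (mm9 chromosome 13, 115242470 to 115249159) was listed at 0 in all 3 LSECs and at 955, 62 and 1357 FPKM in the Akt-LECs compared with 211, 107 and 491 in the Akt-liver ECs. It was above 0 in every library but the LSECs, it was called (adjusted p = 0.000104 in limma), and no fold is given against a group at 0. Fstl3 (mm9 chromosome 10, 79240017 to 79245375), another binder of activins, had 42.3, 21.2 and 44.4 FPKM in Akt-liver ECs and 0, 0 and 1.17 in LSECs, with a change of 4.77 (SE 1.16, adjusted p = 0.00399). Elsewhere it was at 26.9, 10.9 and 64.7 FPKM in MACs, 70.2, 21.6 and 50.5 in Akt-MACs and 35, 0 and 72.4 in RACVECs, and at 22.2, 3.79 and 4.27 FPKM in Akt-RACVECs, 0, 0.9 and 0 in Sox17-RACVECs and 35, 8.43 and 3.52 in Akt-LECs. Inhba, the activin beta A chain that follistatins bind, was also listed at 0 in the 3 LSECs and at 53.1, 14.2 and 0.76 in Akt-liver ECs, and was not called. Grem1 and Chrd were at 0 in LSECs as well. Bmper, at 26, 27.7 and 30.3, was the antagonist with the highest FPKM there apart from Fstl1 in LSEC 3.

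Bmp4 (mm9 chromosome 14, 47003195 to 47010344), an activating ligand of Bmpr1a, had 256, 115 and 200.2 FPKM in Akt-liver ECs and 2.38, 1.86 and 5.25 in LSECs, with a change of 5.53 (SE 1.46, adjusted p = 0.00668). It varied widely elsewhere, with 49.8, 18.5 and 1.9 FPKM in MACs, 10.9, 9.97 and 37.2 in Akt-MACs and 16.9, 0.56 and 111 in RACVECs, and 52.4, 278 and 8.82 FPKM in Akt-RACVECs, 38.9, 5.75 and 1.78 in Sox17-RACVECs and 247, 17.4 and 120.0 in Akt-LECs. Tgfb2 (mm9 chromosome 1, 188447065 to 188529871) had 95.2, 32.4 and 184 FPKM in Akt-liver ECs and 1.07, 1.55 and 1.46 in LSECs, with a change of 5.16 (SE 0.82, adjusted p = 0.000104). It was 34.6, 10.4 and 85.3 FPKM in MACs, 42.3, 58.5 and 33.4 in Akt-MACs and 43.2, 4.45 and 12 in RACVECs, and 7.17, 26.6 and 5.21 FPKM in Akt-RACVECs, 45.4, 13.9 and 54.5 in Sox17-RACVECs and 52.1, 28.3 and 78.6 in Akt-LECs. For Tgfb2 each LSEC lay below every other library. Tgfb3 (mm9 chromosome 12, 87397694 to 87419991) had 46.3, 60.3 and 56 FPKM in Akt-liver ECs and 6.07, 2.84 and 5.88 in LSECs, with a change of 3.26 (SE 1.15, adjusted p = 0.034), a call that was kept in 0 of 6 fits without 1 library. It was 193, 112 and 31.8 FPKM in MACs, 44.5, 56 and 221 in Akt-MACs and 84.5, 30.4 and 50.8 in RACVECs, and 82.4, 2.03 and 74.8 FPKM in Akt-RACVECs, 27.3, 7.28 and 21.5 in Sox17-RACVECs and 87.7, 262 and 9.18 in Akt-LECs. Tgfb1, the most abundant ligand of the list in LSECs per length of transcript, had 399.8, 1302 and 1135 FPKM in Akt-liver ECs and 478, 489 and 424 in LSECs and was not called.

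On the receptor side, Tgfbr1 (mm9 chromosome 4, 47366094 to 47427803), the type I Tgf-beta receptor that SB431542 inhibits, had 52.2, 18 and 9.88 FPKM in Akt-liver ECs and 114, 75 and 71 in LSECs, with a change of -1.95 (SE 0.66, adjusted p = 0.0294), kept without Akt-liver EC 1 and lost without any of the other 5. Its other levels were 48.7, 68.6 and 92.9 FPKM in MACs, 61.3, 71.4 and 143 in Akt-MACs and 99, 44.9 and 54.6 in RACVECs, and 49.4, 41.8 and 11.7 FPKM in Akt-RACVECs, 31.1, 20.7 and 36.6 in Sox17-RACVECs and 133, 17.5 and 33 in Akt-LECs. Bmpr2 (mm9 chromosome 1, 59821481 to 59927703) had 78, 121 and 82.5 FPKM in Akt-liver ECs and 327, 196 and 155 in LSECs, with a change of -1.22 (SE 0.38, adjusted p = 0.0185), lost without Akt-liver EC 1, Akt-liver EC 3 or LSEC 1. Elsewhere it had 47.9, 53.5 and 79.4 FPKM in MACs, 70.6, 84 and 51.9 in Akt-MACs and 59.1, 79 and 65.8 in RACVECs, and 64.7, 54 and 94.9 FPKM in Akt-RACVECs, 35.5, 88.5 and 73.2 in Sox17-RACVECs and 90.4, 90.2 and 38 in Akt-LECs. Each LSEC lay above every other library in Bmpr2. Acvr1 had a change of -1.03 (SE 0.34, adjusted p = 0.0265), kept without Akt-liver EC 1 and lost without any of the other 5. Eng and Acvrl1 were not called between these groups, with log2 fold changes of -0.96 and 0.84.

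Smad3 (mm9 chromosome 9, 63494574 to 63605801) had 132, 177 and 99.4 FPKM in Akt-liver ECs and 31.3, 34 and 32.2 in LSECs, with a change of 1.99 (SE 0.45, adjusted p = 0.00208), called in 6 of 6 fits without 1 library. It was 193, 239 and 202 FPKM in MACs, 146, 119 and 142 in Akt-MACs and 209.8, 62.8 and 162 in RACVECs, and 130.2, 118 and 96 FPKM in Akt-RACVECs, 134, 131 and 67.6 in Sox17-RACVECs and 266, 56 and 119 in Akt-LECs. The LSECs were the 3 lowest libraries in Smad3. Id4 had 16.6, 0.68 and 0 FPKM in the Akt-LECs, 23.2, 0 and 2.03 in the Akt-liver ECs and 125, 118 and 179 in the LSECs, with a change of -5.06 (SE 1.29, adjusted p = 0.00537) against Akt-liver ECs, called in 6 of 6. Id2 and Id3 also had lower values in culture and Id1 higher ones (749.6, 1581 and 3177 FPKM in Akt-liver ECs and 403, 435 and 422 in LSECs), none of them called. Smad6 had 64, 95.8 and 41.5 FPKM in the Akt-LECs, 242, 49.3 and 84.1 in the Akt-liver ECs and 271, 309 and 283 in the LSECs. Each LSEC lay above every cultured EC, and the difference was not called (log2 fold change -1.51, adjusted p = 0.121).

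**Figure D5:**
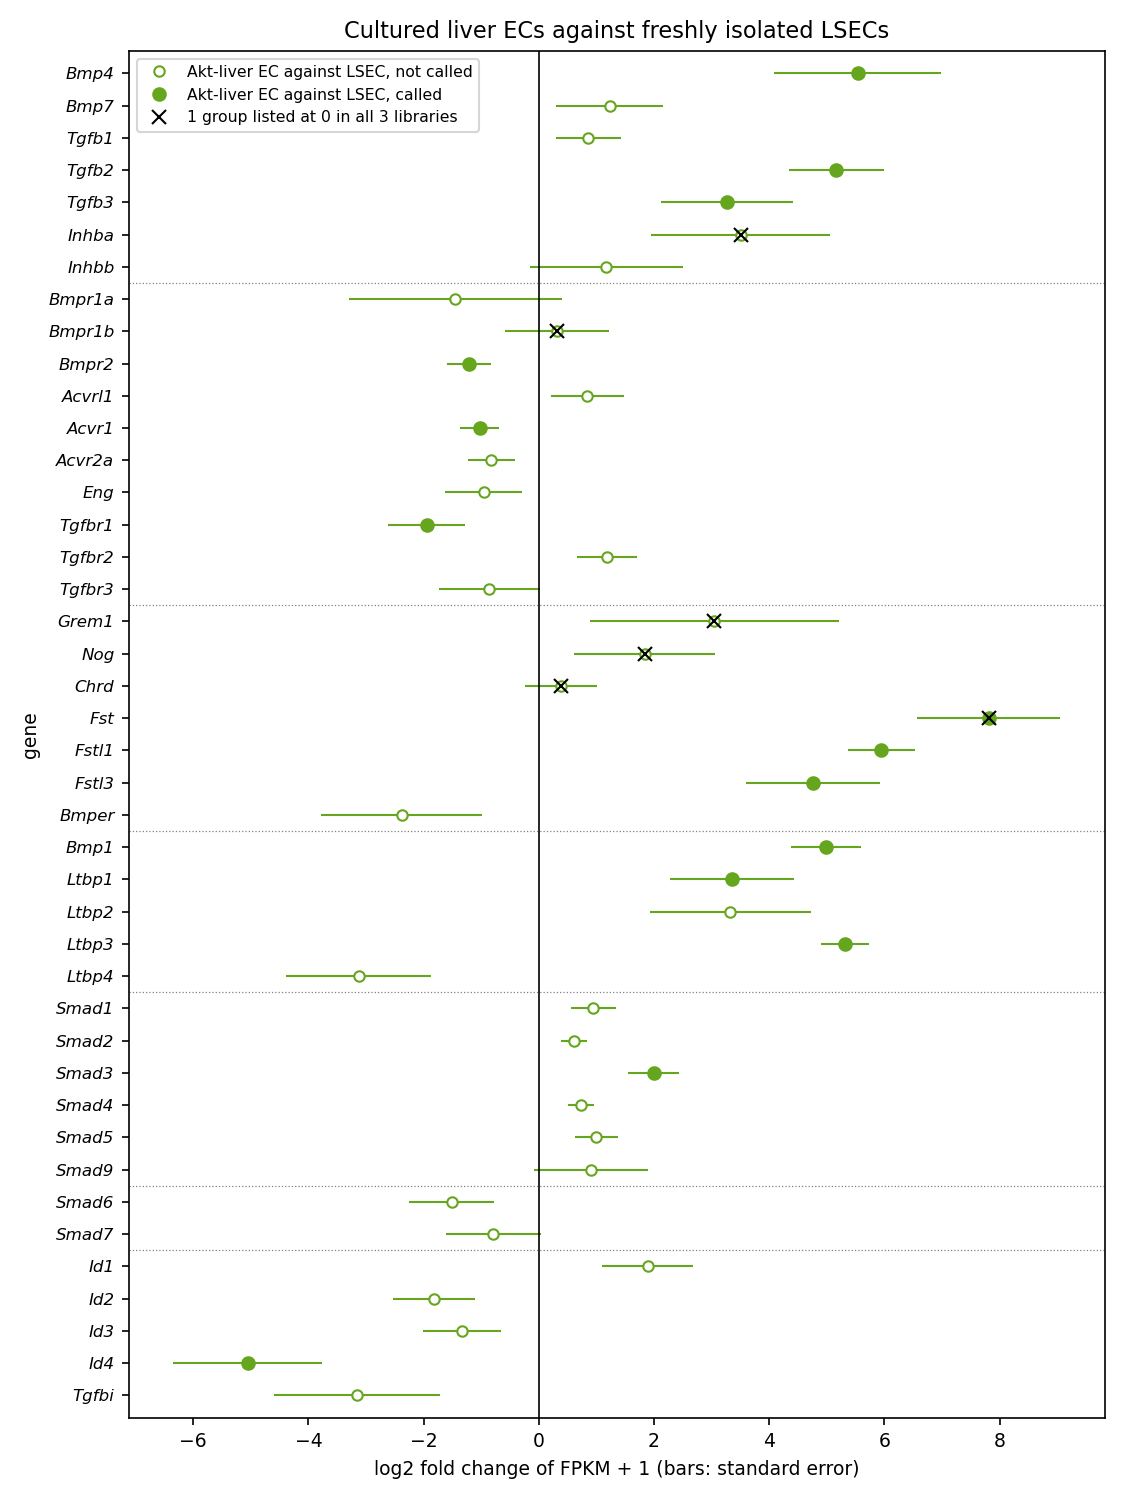
Log2 fold change of FPKM + 1 (horizontal axis) of each of the 42 genes in Akt-liver ECs against LSECs, with 3 libraries a group; bars are standard errors, filled points are called, and a cross marks a group listed at 0 in all 3 libraries. The called antagonists, ligands and matrix genes lie right of 3, and the called receptors Bmpr2, Acvr1 and Tgfbr1 between -1 and -2.

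A wider list of 82 Bmp and Tgf-beta pathway genes outside the 42 was described in the same way. Of these, 81 were found and 57 passed the filter. Against MACs, RACVECs had 1 of 57 higher and 3 lower, beside 1.36% and 1.35% of all genes. Akt-RACVECs against Akt-MACs had 3 higher and 14 lower, beside 6.15% and 13.4%. Akt-MACs against MACs had 1 higher and 1 lower, beside 2.59% and 0.214%. Akt-liver ECs against LSECs had 14 higher and 6 lower, beside 14.1% and 12.9%. The other comparisons had 0 called with limma. At an unadjusted p below 0.05 there were 9 in Akt-RACVECs against RACVECs (15.9% of all genes) and 5 in Sox17-RACVECs against RACVECs (6.62%). There were 5 in Akt-RACVECs against Akt-LECs (8.68%), 3 in Akt-LECs against Akt-liver ECs (4.22%) and 3 in the interaction (12.1%). The lower genes in Akt-RACVECs against Akt-MACs with the largest changes were Nbl1, a Bmp antagonist (log2 fold change -5.89), the ligand Gdf6 (-5.76), the protease Htra1 (-5.17) and Itgb8, an integrin chain that activates latent Tgf-beta (-4.74). Lrrc32, which holds latent Tgf-beta at the cell surface, rose by 5.36. In Akt-MACs against MACs, Nrros, a holder of latent Tgf-beta known from macrophages and microglia, rose by 4.87, with 0.77, 0.87 and 1.25 FPKM in MACs and 4.97, 99.98 and 308 in Akt-MACs beside the macrophage markers of Akt-MAC 2 and 3, whose part was not tested.

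In the liver ECs, the largest change was that of Bmp2, a ligand made by sinusoidal ECs that takes part in iron balance. Its level was 71.6, 0 and 0 FPKM in Akt-liver ECs and 1036, 1373 and 1950.2 in LSECs, with a log2 fold change of -8.40. Thbs1, an activator of latent Tgf-beta, was higher in culture by 6.87. The protease Tll1 was listed at 0 in the 3 LSECs, at 31.6, 34.2 and 172 in Akt-liver ECs, and was called higher. Bmp6 and Gdf2, named after their values were seen, are the partner of Bmp2 in iron balance and the gene of Bmp9. Bmp6 had 184, 34.1 and 51.6 FPKM in Akt-liver ECs and 319, 405 and 308 in LSECs and was called lower in culture. Gdf2 was listed at 13.6, 13.7 and 26.9 FPKM in LSECs and at 0 in the other 21 libraries. The stellate markers Lrat and Colec10, of a cell type known to make Bmp9, were at 59, 53.8 and 52.7 and at 127, 98.9 and 99.8 in LSECs. Hgf, of the same list, was at 262, 167 and 284 there. The other stellate markers Reln, Des, Pdgfrb and Ngfr were at most 18.7 in LSECs and at 193, 182, 57.9 and 2801 in MAC 3. The part of stellate cells in Gdf2 was not tested.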

How the data were processed

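PolyA RNA of 24 libraries (8 groups of 3, grouped by their titles) was sequenced as paired 51-base reads. Per the labels and the paper's methods, the authors aligned reads to mm9 with TopHat and computed the deposited FPKM values with Cufflinks, with upper-quartile scaling and a correction for sequence bias. Read numbers are not given and the low values held no whole-read steps, so depth is unknown and no counting interval is given. Of 27583 transcripts per library, 26934 were joined to a symbol and summed into 22282 genes. Upper-quartile scaling makes values relative to each library, so a shift shared by most genes would not be seen.

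The 42 members and all gene lists were chosen with earlier results of these data known. Genes averaging at least 1 FPKM (14964) were tested on the log2(FPKM + 1) scale (limma 3.58.1, R 4.3.3), as 1 fit over the 8 groups without a block, with Benjamini-Hochberg adjustment over all of them; a call needed an adjusted p below 0.05 and a change past 1 or -1. On simulated data for RACVECs against MACs, 175 of 200 genes changed by 3 on the log2 scale were recovered among 14964, and 8 unchanged genes were called. In Akt-RACVECs against Akt-MACs of the same simulated data, where no gene was changed, 0 were called. The changed genes were drawn only from those with higher means, and the noise was normal with 1 spread per gene in all 8 groups. The simulation therefore does not cover low genes or groups that differ in spread. No 2 libraries held identical values. Values in every library are given for members called in any comparison and family members set beside them. Of the other pathway genes, the 10 called with the largest changes are named, except 1 that is not reported here. Promoter stretches came from RefSeq (GRCm38.p6) and gene positions from GENCODE M1 (mm9). Alternatives were pseudocounts of 0.1 and 10, no filter or a mean of 10 FPKM, only the groups compared, a replicate block, scaling by each library's median shift, the highest transcript of a gene, the study's own rule and leaving out each library.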

Additional observations from a re-analysis of the deposited data

How the results depend on the processing

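Of the 28 calls of members, 13 were called in every fit that left out 1 library, and 6 also under every other alternative (Bmp1, Bmp4, Fstl3, Id4, Ltbp3 and Smad3 in Akt-liver ECs against LSECs). Of 433 single-gene results under alternatives, 324 kept their call, 109 kept the direction without the call and 0 reversed. With only the groups compared in the fit, the counts of called members were 0 in RACVECs against MACs (1 before) and 2 in Akt-RACVECs against Akt-MACs (13 before). They were 1 in Sox17-RACVECs against RACVECs (0 before, Grem1) and 19 in Akt-liver ECs against LSECs (14 before). Of all 14964 genes these fits called 41, 1013, 8 and 4196, in the same order. By the study's own rule the counts of called members were 6 in Akt-RACVECs against Akt-MACs and 2 in Akt-RACVECs against RACVECs. They were 1 in Sox17-RACVECs against RACVECs and 13 in Akt-liver ECs against LSECs. Of all genes above 0 in the groups compared, this rule called 1190, 518, 151 and 2809, in the same order. The cause of the differing counts was not tested. Without both Akt-MAC 2 and 3, chosen after seeing the data, 3 were called in Akt-RACVECs against Akt-MACs, where the lone Akt-MAC library is assumed to vary like the other groups. Leaving out 1 library gave 0 to 2 called members in RACVECs against MACs, 6 to 12 in Akt-RACVECs against Akt-MACs and 0 to 1 in Akt-RACVECs against RACVECs. It gave 0 to 3 in Sox17-RACVECs against RACVECs, 0 to 1 in Akt-MACs against MACs, 10 to 17 in Akt-liver ECs against LSECs and 0 in the other comparisons. Of all 14964 genes, the first 6 comparisons then called 178 to 747, 1641 to 2511, 5 to 93, 1 to 53, 72 to 772 and 3401 to 3864. The member count in Akt-RACVECs against Akt-MACs was 7 without Akt-MAC 1, 6 without Akt-MAC 2 and 6 without Akt-RACVEC 3. With the replicate block, the counts of called members were 1 in RACVECs against MACs, 14 in Akt-RACVECs against Akt-MACs, 14 in Akt-liver ECs against LSECs and 0 elsewhere. Of all genes the block fits called 473, 2989 and 3999 where members were called. In none of the comparisons did all 3 same-numbered pairs correlate above 0.1, so the numbers were not taken as pairs. File headers name MAC 2 like RACVEC 1 and MAC 3 like RACVEC 2, and a replicate block of these pairs, added after seeing the data, called 1 member. Scaling by the median shift moved the median change of all genes from -0.093 to 0.027 in Akt-RACVECs against Akt-MACs, where 14 members were then called, from 0.087 to -0.057 in Akt-MACs against MACs and from -0.119 to 0.046 in the interaction. Unknown depth limits what can be said of members near 0.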

Other observations

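Single libraries stood apart from their groups in some pathway genes. Bmp2, outside the 42 genes, was at 1218, 18.2 and 32 FPKM in the 3 MACs, so that MAC 1 lay within the range of the LSECs. Ltbp2 was at 79.7, 418 and 2.51 FPKM in the RACVECs.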
